A study of Mus musculus with 4 samples.

Results

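The genes described here are those on whose RNA NAT10 was found in the 5' UTR, in an mRNA the stretch between the cap and the start codon. NAT10 was mapped by eCLIP, in which ultraviolet light crosslinks a protein to the RNA it touches and the RNA recovered with an antibody is sequenced. The members were chosen from the authors' own peak classes: every gene identifier with at least 1 peak of class 5' UTR, with all of its peaks. This gave 152 of 1629 gene identifiers (151 gene symbols) and 648 of 4172 distinct peaks, of which 237 lay in the 5' UTR, 233 in the class exon and 178 in the 3' UTR. The class was thus used for the choice, while fold, p and width of a peak were not. A class itself rests on where a peak lies in a transcript. By RefSeq, 147 of the symbols are protein-coding, 3 had no match and 1, Snhg4, is a long non-coding RNA. The 5' UTR peak listed for Snhg4 has the same log2 fold (4.96) and width (106 nt) as that of Matr3.

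The cells were 32D, an established mouse bone marrow line that grows on interleukin-3, of wild-type genotype. The experiment comprised 2 libraries made with the NAT10 antibody and 2 inputs without antibody, all from cells grown with interleukin-3 and crosslinked with ultraviolet light. Separate cultures are not stated for the libraries. A single peak list over all of them was deposited, so no peak has a value per library, no spread between replicates can be given and no test between immunoprecipitate and input was possible. The depth behind a peak is unknown. The strength of a peak is given below as log2 fold over input and as -log10 p, both the authors' values. A 5' UTR peak had to reach the list, whose lowest log2 fold was 3.00, so genes lacking such a peak may still be bound there at a lower level. The weakest 5' UTR peaks inside the list were those of Pabpc1 (log2 fold 3.02), Fau (3.05) and Rpsa (3.06).

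NAT10 is an acetyltransferase that makes N4-acetylcytidine (ac4C), an acetylated form of the base C. It acts on ribosomal RNA and, with a partner protein, on tRNA, and ac4C has also been described on mRNA, where it has been linked to RNA stability and to translation. The 5' UTR is the part of an mRNA that the small ribosomal subunit scans for a start codon, so proteins and structures there can set how often the mRNA is translated. The mRNAs of ribosomal proteins typically begin with a C and a run of pyrimidines, the terminal oligopyrimidine start through which growth signals control their translation. A repeat of C followed by 2 other bases has been described around ac4C sites.

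To show what the bound mRNAs look like at their start, the members were matched to the RefSeq start windows of GRCm38.p6. This is an older build than the GRCm39 of the peaks, so the sequences are those of the annotated start of each mRNA and not of the peak itself. Of the 151 symbols, 119 matched, with 175 windows. An oligopyrimidine start, here a C at the first transcribed base and then at least 4 bases that are each C or T, was found in 11 of the 175 windows (6.29%). Among the ribosomal protein members it was 6 of 23 windows (26.1%), among the other members 5 of 152 (3.29%) and 2.51% among all 32851 windows. The 6 ribosomal protein starts are shown because they carry the element for which this group is known. Capitals mark the opening pyrimidine run, and each sequence begins at the first transcribed base. They lie at chr7:118116118-118116147 (Rps15a, minus strand), chr4:86857338-86857367 (Rps6, minus), chr11:48800360-48800389 (Rack1, plus), chr17:33955636-33955665 (Rps18, minus), chr16:33056482-33056511 (Rpl35a, plus) and chr19:6057947-6057976 (Fau, plus) of GRCm38.p6.
Rps15a: CTTCCCTCgccggtgagtgagtgtttgtga
Rps6: CTCTTTTTCgtgacgcctcccaggcgctcg
Rack1: CTTTTTCTCCacagggtcgtggtggcagcc
Rps18: CTCTCTTCCacaggaggcctacacgccgcc
Rpl35a: CTCTTTCCgccatcttggcgcctgtggagg
Fau: CTTCCTCTTTCTTgactccatcttcgcggt

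The opening pyrimidine run was 8 to 13 bases long in these 6 genes. The strongest 5' UTR peak of each ranged from a log2 fold of 3.05 for Fau to 4.80 for Rps15a, and that of Rps15a lay above the median of all 5' UTR peaks (4.50).

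The C repeat was searched as CNNCNNCNNCNN within the first 50 transcribed bases. It stood on the sense strand of 42 of the 175 member windows (24.0%), against 31.1% of 1563 windows of the other genes in the list and 21.1% of all windows. On the opposite strand it stood in 42.3% of member windows, 45.4% of those of the other genes and 29.0% of all. Both motifs were present in 4 member windows and overlapped in none of them. The median GC content of these 50 bases was 62.0% in the members, 66.0% in the other genes of the list and 56.0% in all windows. The share in the members thus lay below that in genes with peaks elsewhere, as did their GC content, and the part of GC content in this was not tested. Members whose strongest 5' UTR peak reached a log2 fold of 6 or more had the sense repeat in 2 of 16 windows (12.5%, interval 1.55 to 38.3). On the opposite strand they had it in 9 of these 16 (56.25%, interval 29.9 to 80.2). A few sense matches are shown only to make the motif visible, with the 12 matching bases in capitals. The genes were picked, so the matches do not link the motif to strong peaks. They are the kinase Jak1 (chr4:101265194-101265223, minus strand), the phosphatase Ptp4a2 (chr4:129820479-129820508, plus), the splicing factor Luc7l2 (chr6:38555723-38555752, plus) and the transcription factor Gata2 (chr6:88193910-88193939, plus), all in GRCm38.p6.
Jak1: gtagcCGGCAGCCGCTGacgcgccgcgggg
Ptp4a2: gagtCGTCGCCGCCGCcgccgccgctcccg
Luc7l2: aCCACCTCCCCAGtaatagggatcaaactc
Gata2: cgggccgacCAGCCACGCCGCtcacaccgc

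A match is a description of these letters only, and whether NAT10 touches them was not tested. A further feature of the starts was their number. More than 1 RefSeq start window was listed for 38 of the 119 matched members (31.9%), for 21.0% of the other genes of the list and for 15.4% of all genes in the table.

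Peaks in the 5' UTR had a median strength near that of the whole list and were less often strong. Their log2 folds ran from 3.02 to 7.81 with a median of 4.50 (interquartile range 4.05 to 5.04), which is 22.6-fold over input. The exact 95% order-statistic interval of the median, which covers the spread of peaks and no replicate error, was 4.43 to 4.63. Over the whole list the median was 4.60. A log2 fold of 6 or more, that is 64-fold or higher, was reached by 19 of 237 5' UTR peaks (8.02%, exact Clopper-Pearson 95% interval 4.90 to 12.2), beside 13.8% of all peaks in the list. These 19 strong peaks were spread over 14 genes. Exon peaks of the same genes gave 7.73% (interval 4.64 to 11.9) and exon peaks of the other genes in the list 14.4% (12.5 to 16.4). The -log10 p of 5' UTR peaks had a median of 5.93 and a highest value of 52.4, so none stood at the column's ceiling of 400. The fold values repeated: 179 of the 237 (75.5%) were shared exactly with at least 1 other peak, beside 78.1% in the whole list.

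**Figure D1:**
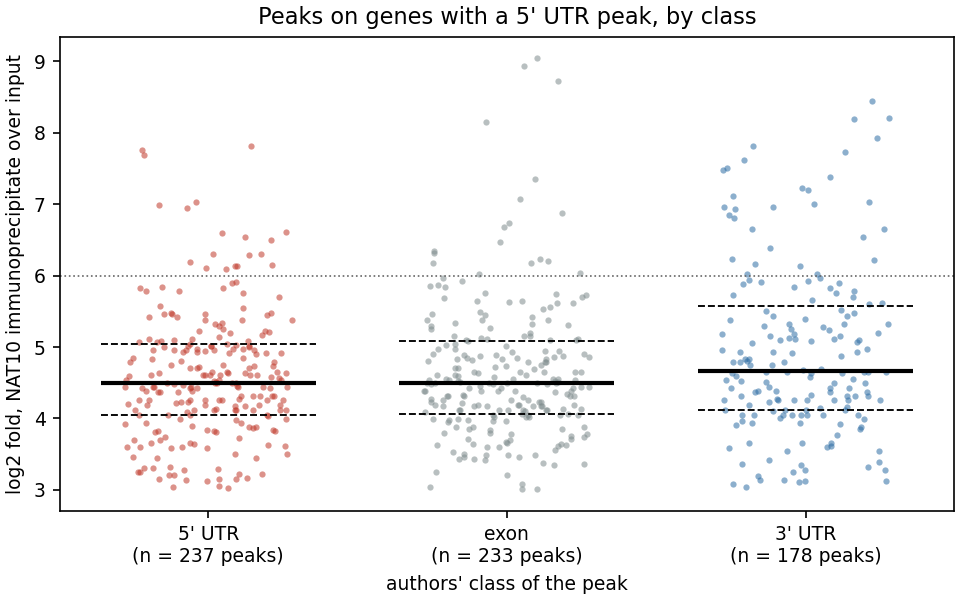
Log2 fold over input (vertical axis) of the 237 5' UTR, 233 exon and 178 3' UTR peaks on the 152 genes; each point is a peak, solid lines are medians, dashed lines quartiles and the dotted line a log2 fold of 6. The medians lie at 4.50, 4.50 and 4.67, and the highest 5' UTR peak (7.81) lies below the highest exon (9.04) and 3' UTR (8.44) peaks.

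The strongest 5' UTR peaks belonged to mRNAs with unlike tasks. Epb41l2, which encodes a protein of the membrane skeleton, led with 3 peaks almost end to end at log2 folds of 7.04, 7.81 and 6.15 on chromosome 10, 25367309 to 25367613. The highest of them corresponds to 225-fold. All 3 peaks of this gene lay in the 5' UTR. Fam107b followed with a single 5' UTR peak of 148 nt at 7.75 (chromosome 2, 3774968 to 3775115), while its 7 peaks in the 3' UTR stayed between 4.05 and 4.84. Atpsckmt, a methyltransferase gene that acts on ATP synthase, had 7.69 in the 5' UTR (chromosome 15, 31605984 to 31606064) and 4.05 in the 3' UTR. These 3 genes were the only members with a 5' UTR peak above a log2 fold of 7.

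The next genes included a regulator of translation and a signalling kinase. Pdcd4, an inhibitor of the initiation helicase eIF4A, had 6.60 in the 5' UTR, with up to 5.10 in exons and 6.24 in the 3' UTR. Tbk1, the innate immune kinase, had 5' UTR peaks of 6.61 and 6.50, each under 15 nt wide, and stronger exon peaks of up to 9.04. Grina, a membrane protein gene, had 6.99 in the 5' UTR and 4 exon peaks from 6.21 to 6.88, a nearly level signal between these classes. It had no 3' UTR peak in the list.

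Dhrs3, a reductase gene of retinoid metabolism, carried 6 5' UTR peaks and no other. Their log2 folds in the order of transcription were 4.64, 5.19, 5.09, 6.29, 6.54 and 5.08, all within 495 nt of chromosome 4 (144619651 to 144620145). Nipbl, which loads cohesin onto chromosomes, had 5.17 and 6.30 in adjoining peaks and 4.70 farther along. Ubb, a polyubiquitin gene, had 6.10 and 6.14 in the 5' UTR against 5.04 in its exon peak. Gtf2a1, a subunit of the general transcription factor TFIIA, had 6.09 in a 47 nt peak and 3.45 and 3.51 in the others, all of class 5' UTR. Srek1, a splicing regulator, stood last of the 15 strongest with 5.90 in the 5' UTR and 5.48 in the 3' UTR.

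Members with 5' UTR peaks alone numbered 42 of 152 (27.6%). A further 52 also had exon peaks, 26 also had 3' UTR peaks and 32 had all 3 classes. The strongest 5' UTR peak of a gene had a median log2 fold of 4.49, 4.68, 4.60 and 4.49 in these sets, with intervals that overlapped. The 8 strongest genes of the first set, after Epb41l2, Dhrs3 and Gtf2a1, were Jak1 (5.75), Gpbp1 (5.70), Gm49496 (5.70), Bcl2l1 (5.46) and Arhgdib (5.46). Gpbp1 and Gm49496 are listed with the same peak, at chromosome 13, 111624298 to 111624506, so the transcript behind it is uncertain. In all, 4 5' UTR peaks were listed under a pair of gene identifiers.

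A single 5' UTR peak was listed for 105 genes, while 47 had more than 1. Dhrs3 and Luc7l2 had 6 each, Fam193b and Hnrnpc 5 each, and 8 genes had 4. In 30 of the 47 the 5' UTR peaks lay within 1000 nt of genome, while in 4 (Hnrnpc, Mecom, Nipbl and Plcb4) they spread over more than 10000 nt. Introns add to such distances. Luc7l2, a factor associated with the U1 splicing particle, had 5' UTR peaks of 4.44, 4.96, 5.26, 6.14, 5.90 and 4.66. Hnrnpc, which packages nascent RNA, had 3.21, 4.38, 4.03, 4.36 and 5.07, the last at the downstream end. Fam193b ranged from 4.05 to 5.41. Ptp4a2, a tyrosine phosphatase gene with 4 5' UTR peaks, had 5.84, 4.96, 4.92 and 5.79.

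**Figure D2:**
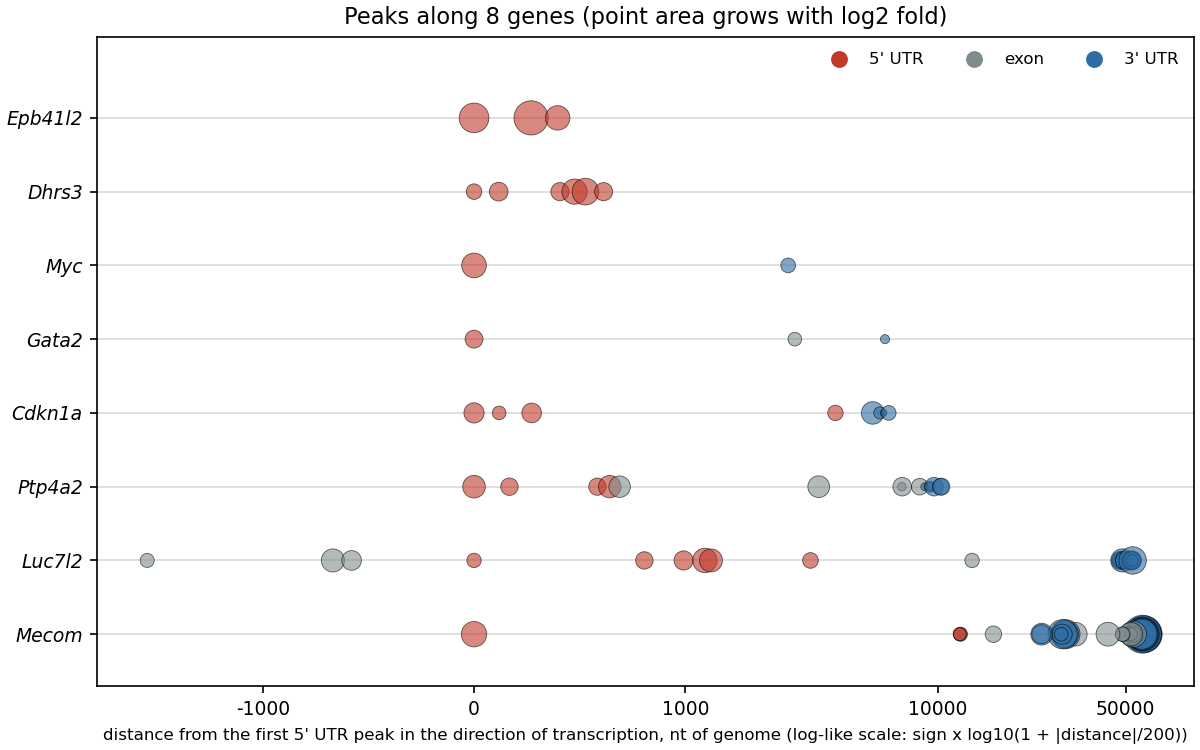
Peaks of 8 members placed by their distance, in nt of genome in the direction of transcription, from the first 5' UTR peak of the gene (horizontal axis, log-like scale); colour gives the class and point area grows with log2 fold. Epb41l2 and Dhrs3 have 5' UTR peaks alone, while 3 exon peaks of Luc7l2 lie upstream of its 5' UTR peaks.

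The authors' classes were set beside the order of peaks along the gene. A 5' UTR lies at the start of its transcript, so this order largely follows from the class and is no independent check of it. Of the 110 members with a peak of another class, 99 (90.0%, exact 95% interval 82.8 to 94.9) had every 5' UTR peak upstream of all their other peaks. The 11 others were Chka, Cox7c, Fth1, Luc7l2, Nt5c3, Plcb4, Ptpn18, Ube2k, Zmat3 and Zc3h11a under 2 identifiers. In Ube2k, a ubiquitin-conjugating enzyme gene, the exon peak (chromosome 5, 65699293 to 65699353) lay far upstream of the 5' UTR peak (65738686 to 65738808). The sources used here do not give the transcript behind each class, so for these 11 the label 5' UTR need not hold for every transcript. Leaving them out changed no direction.

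Set beside the other peaks of the same genes, 5' UTR peaks had the same median log2 fold as exon peaks (4.50 each) and a slightly lower one than 3' UTR peaks (4.67, interval 4.51 to 4.93). The exon interval was 4.38 to 4.58, so the intervals of the 3 classes met or overlapped. Strong peaks seemed more frequent in the 3' UTR, with 30 of 178 (16.9%) at a log2 fold of 6 or more against 18 of 233 exon peaks (7.73%). This rested on Mecom, which held 19 of the 30. Without Mecom the shares were 11 of 155 in the 3' UTR (7.10%), 15 of 223 in exons (6.73%) and 18 of 234 in the 5' UTR (7.69%), and the medians 4.55, 4.50 and 4.50.

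Within single genes the strongest 5' UTR peak was more often the weaker of the pair. Against the strongest exon peak it was higher in 37 and lower in 47 of 84 genes, with a median difference of -0.24 (5' UTR minus exon, interval -0.41 to 0.11). Against the strongest 3' UTR peak it was higher in 23 and lower in 35 of 58 genes, with a median of -0.26 (interval -0.60 to 0.04). Both intervals include 0. Against the stronger of the other classes together it was higher in 43 and lower in 67 of 110 genes, with a median of -0.34 and an interval of -0.52 to -0.02 that does not include 0. Genes tended to have fewer peaks in the 5' UTR: in these 84 genes 13 had more peaks there than in exons and 40 had fewer, and a class with more peaks has more chances of a high one. Where each class had exactly 1 peak, the 5' UTR was higher in 13 and lower in 13 of 26 genes against the exon, and higher in 12 and lower in 6 of 18 genes against the 3' UTR. The median differences were then 0.04 and 0.11.

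**Figure D3:**
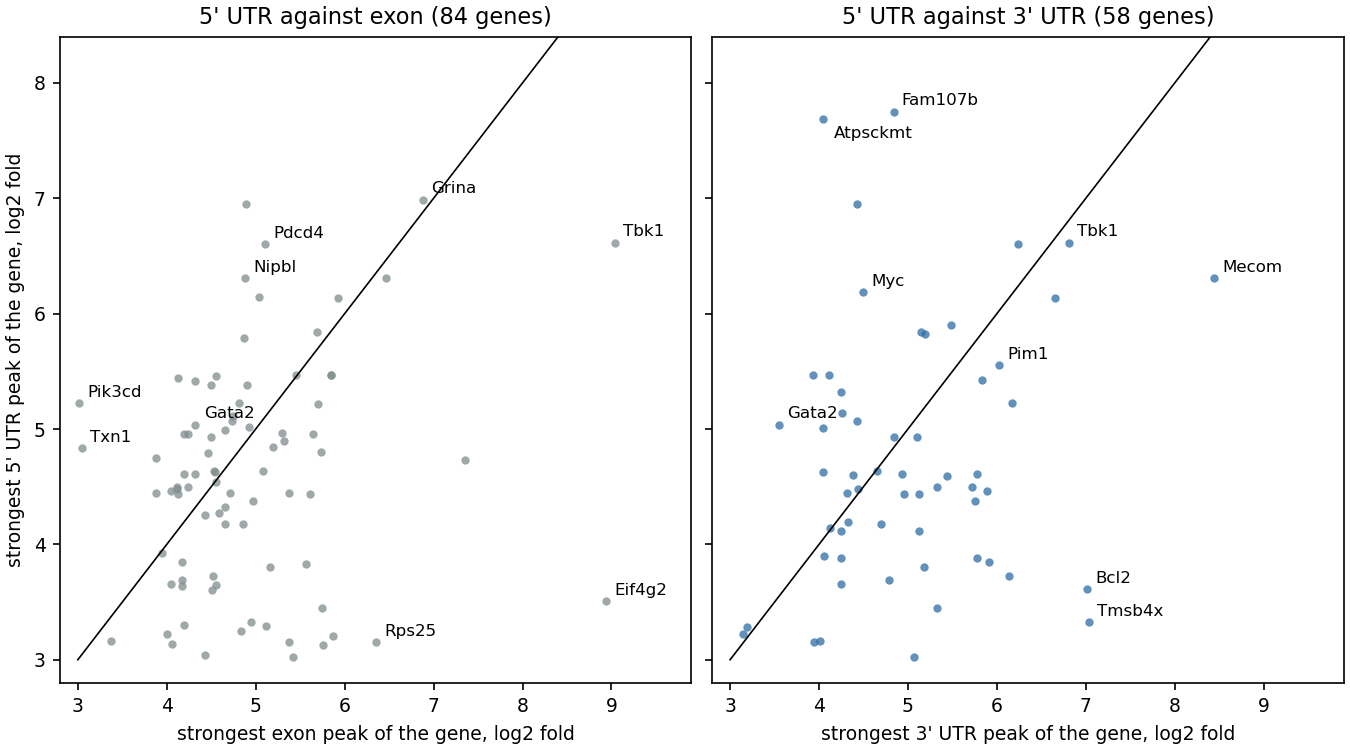
Strongest 5' UTR peak of a gene (vertical axis, log2 fold) against its strongest exon peak (left, 84 genes) and its strongest 3' UTR peak (right, 58 genes); each point is a gene and the line marks equal folds. Points lie on either side of the line, with Atpsckmt and Fam107b far above it and Eif4g2, Bcl2 and Tmsb4x far below.

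Single genes differed widely. Among the genes that leaned most to the 5' UTR, measured against the strongest peak of any other class, were Atpsckmt (difference in log2 fold 3.64), Fam107b (2.91), Pik3cd (2.20) and Txn1 (1.79). Pik3cd, a catalytic subunit of PI3-kinase, had 5.22 in the 5' UTR and 3.02 in an exon. Txn1, which encodes thioredoxin, had 4.84 and 3.05. At the other end stood Eif4g2, an initiation factor gene, with a difference of -5.43. Its 22 nt 5' UTR peak reached 3.51, while its exon peaks reached 6.68 and, on only 3 nt, 8.94. Next were the actin-binding thymosin gene Tmsb4x (-3.71, with 3.33 in the 5' UTR and 7.03 in the 3' UTR), the survival gene Bcl2 (-3.40, with 3.61 and 7.01), Rps25 (-3.20) and Rpl30 (-2.66).

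Some 5' UTR peaks were continuous with peaks of the next class. Another peak of the same gene lay within 100 nt of 102 of 237 5' UTR peaks (43.0%, exact 95% interval 36.6 to 49.6), beside 47.1% of all peaks in the list. Touching peaks numbered 70, and for 58 of them the nearest touching peak was itself of class 5' UTR. Joining touching peaks of a class left 208 5' UTR regions with a median width of 81 nt. In 15 genes a 5' UTR peak met an exon peak end to end, with the exon peak downstream in 14 and upstream in Plcb4. Among them were Grina (6.99 in the 5' UTR and 6.74 in the touching exon peak), Rpsa (5.79 and 4.87), Ptp4a2 (5.79 and 5.64), Ppp1r15a (4.75 and 3.88), Rps15a (4.80 and 5.61) and Mecom (4.26 and 4.39). The 5' UTR side was higher in 8 of the 15 and lower in 7, with a median difference of 0.14. Single 5' UTR peaks had a median width of 68 nt (interval 61 to 79), exon peaks of the same genes 53 nt (49 to 60) and 3' UTR peaks 66 nt (61 to 72). In the other genes of the list exon peaks measured 73 nt and 3' UTR peaks 89 nt.

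By function, the members were read against the 9.33% of gene identifiers in the list that had a 5' UTR peak. The 17 gene lists covered 52 of the 151 member symbols. They are not complete for the functions they name, so each count below holds for the listed genes only. Proteins of the cytosolic ribosome formed the biggest group, with 23 of 71 bound genes (32.4%, exact 95% interval 21.8 to 44.5). They carried 35 5' UTR peaks with a median log2 fold of 4.12, against 4.56 for the 202 5' UTR peaks of the other members. None of the 35 reached 6. The highest were those of Rpsa (5.79), Rps28 (5.47), Rpl32 (5.38) and Rpl5 (5.01), and the peaks were short, with a median of 44 nt against 74 nt. In 18 of the 23 genes the strongest peak lay outside the 5' UTR, beside 49 of the 87 other members with peaks of another class. Rps25 had 3.15 in the 5' UTR and up to 6.35 in exons, and Rpl30 had 3.21 and 5.86. Exon peaks numbered 86 on 21 ribosomal protein members and 147 on 63 other members. A gene with more peaks has more chances of one in the 5' UTR. The part of peak number in the share of 32.4% was not tested. Reads of ribosomal protein genes can be shared with their pseudogenes, and the sources used here do not say how such reads were placed.

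Interleukin-3 and JAK-STAT signalling, on which 32D cells depend, had 4 of 10 bound genes with a 5' UTR peak (interval of the share 12.2% to 73.8%). Jak1, the kinase at cytokine receptors, had adjoining peaks of 5.58 and 5.75 on chromosome 4, 101114703 to 101114797, and no peak elsewhere. Pim1, a survival kinase, had 5.04 and 5.55 in the 5' UTR beside 11 3' UTR peaks from 3.14 to 6.02. Bcl2l1, which encodes the survival protein BCL-XL, had 3.94, 4.97 and 5.46, all in the 5' UTR. With Pik3cd these were the 4 members. Of the MYC family and early response factors 2 of 13 were members. Myc had 6.19 in the 5' UTR (chromosome 15, 61859286 to 61859412) and 4.50 in the 3' UTR, and Junb, an AP-1 subunit, had a lone peak of 4.84 that was 199 nt wide.

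Of the haematopoietic stem cell regulators 3 of 17 bound genes were members (17.6%, interval 3.80 to 43.4). Mecom, a transcription factor gene needed by stem cells, had 6.31 in its first 5' UTR peak (chromosome 3, 30063913 to 30064041) and 4.20 and 4.26 in an adjoining pair farther along. Its 10 exon peaks had a median of 4.75 and its 23 3' UTR peaks a median of 7.20. Gata2, a transcription factor gene of the same cells, went the other way, from 5.04 in the 5' UTR through 4.32 in an exon to 3.55 in the 3' UTR. Lyl1, a transcription factor gene of blood stem cells, had 3.59 and 3.94, both in the 5' UTR. Runx1, Erg and Fli1 were bound without a 5' UTR peak in the list: Runx1 with 12 3' UTR peaks, Erg with 1, and Fli1 with 1 in the 3' UTR and 2 in exons.

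The members among the listed translation factors had weak 5' UTR peaks. The eIF4A inhibitor Pdcd4 (6.60) was outside that list. Of 20 bound translation factors 3 were members, Eif4g2 (3.51), the hypusinated factor gene Eif5a (3.23 and 3.22) and the poly(A)-binding protein gene Pabpc1 (3.02), and in all 3 another class was stronger. Of 11 bound mRNAs known for upstream reading frames or stress translation 2 were members. Ppp1r15a, the stress-induced regulator that restores translation, had 4.23 and 4.75 in the 5' UTR and 3.88 in the touching exon peak. Bcl2 was the other. Protein phosphatases had 4 of 19, namely Ptp4a2, Ppp1r15a, Ppp1r10 (3.74 and 4.25) and Ptpn18 (3.65).

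The list of ubiquitin ligases and related genes had 4 of 21. Besides Ubb these were the ligase Nedd4, with 3 5' UTR peaks of up to 5.23 and up to 6.17 in the 3' UTR, Ube2k (4.64) and the ligase Rnf4 (4.11). The list of hnRNP and splicing proteins had 3 of 50 (6.0%, interval 1.25 to 16.5), namely Luc7l2, Hnrnpc and Hnrnpk. Hnrnpk had up to 5.91 in the 3' UTR but 3.84 in its 5' UTR peak. Members such as Rnf5 (4.54), Spop (4.50) and the splicing regulator Srek1 (5.90) were outside both of these lists. Of 29 bound replication-dependent histone genes 2 were members, H2bc9 (5.07) and H2bc8 (3.14), whose near-identical copies make the single gene uncertain. Small GTPases had 1 of 19, Rab44, a Rab gene with 5.03, 4.73, 5.38 and 5.11. Actin and integrin genes had 1 of 26, Tmsb4x. No member was found in the lists of mRNA decay and modification factors (20 bound) and chaperones (19 bound). None was found in those of mast cell and myeloid genes (8 bound) and mitochondrially encoded mRNAs (6 bound). The mast cell and myeloid list is short and does not hold members such as Tarm1 (5.22), Ltb4r2 (4.84) and Nrros (4.61). With such small lists most intervals include 9.33%, and only those of ribosomal proteins and of interleukin-3 signalling lay above it. Among the peaks above the list's median fold, the ribosomal protein share was 16.3% (interval 7.32 to 29.7), which includes the 8.38% of all gene identifiers there, so this difference from the background was lost.

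**Figure D4:**
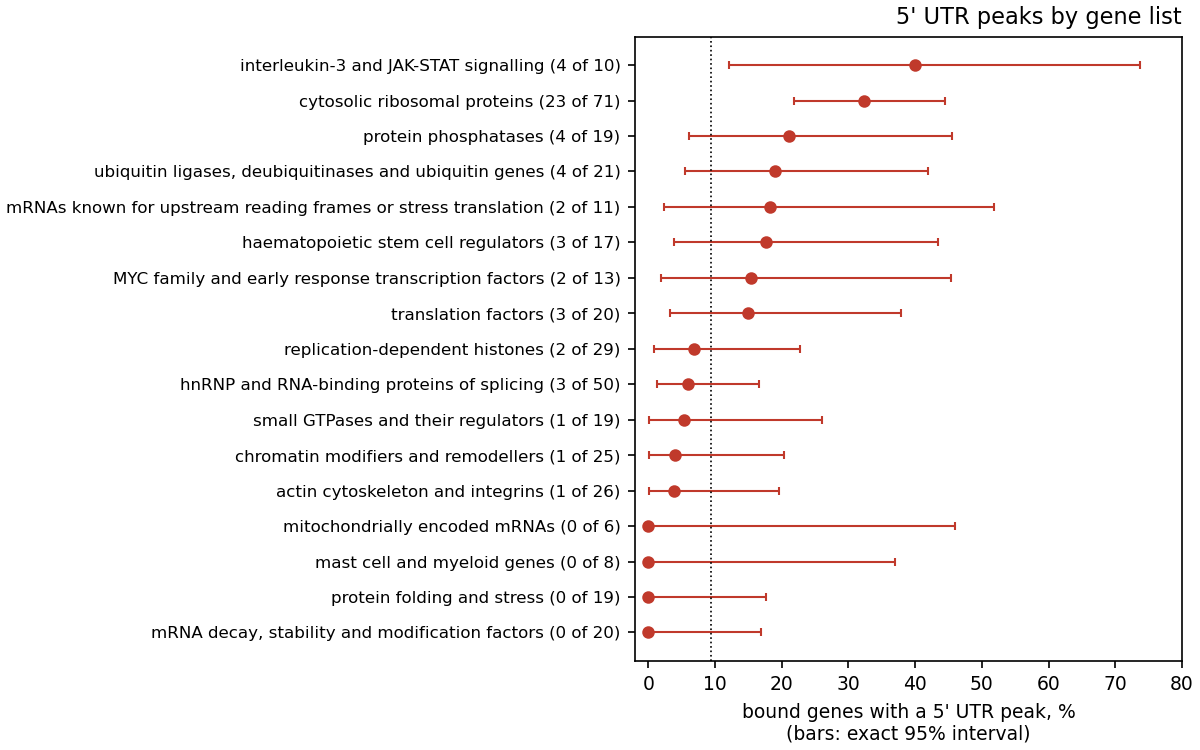
Share of the bound genes of each of 17 lists that had a 5' UTR peak, in percent (horizontal axis), with exact 95% intervals that cover counting error only; the dotted line marks 9.33%. Interleukin-3 signalling (4 of 10) and ribosomal proteins (23 of 71) lie to the right of the line with their whole interval.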

How the data were processed

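Per the labels, NAT10 eCLIP was made from 2 immunoprecipitate and 2 input libraries of 32D cells. The authors deposited 1 peak list of 4206 rows. Per the file headers it gives a p column, read as -log10 p because all values exceed 3, and a fold column, read as log2 fold of immunoprecipitate over input. Coordinates are those of GRCm39, per the submitters' processing notes. The sources used here do not give the aligner, peak caller, thresholds or joining of replicates. The deposited fold and p were used as they stand, to describe and rank peaks.

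Classes were stripped of spaces, a peak name was counted once and rows under several identifiers stayed with each gene. Medians have exact order-statistic intervals and shares Clopper-Pearson intervals of 95%. Peaks are not replicates, so no test was made. Members, lists and the rule for named genes were chosen with earlier results of these data known. The rule named the 15 genes with the strongest 5' UTR peak, the 5 with the most such peaks, the 8 strongest bound there alone, the 5 with the largest within-gene difference each way, up to 4 per list, and Mecom, Runx1, Erg, Fli1, Gata2, Myc and Jak1. Some results are not reported here. Genes named for order, touching peaks or sequence were chosen after their values were seen. Python 3.11.15, pandas 2.3.3 and SciPy 1.17.1 were used, and the functions were tested on simulated data. Alternatives varied peak strength, joining, marks, distances and members.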

Additional observations from a re-analysis of the deposited data

How the results depend on the processing

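No paired analysis was possible because the deposited list has no value per library, and for the same reason no replicate could be left out. Of the comparisons between settings for the main results, 103 were counted as the same, 24 moved further and 8 changed sign. The same meant within the interval of the main value, or within 1.5 times for counts and for differences of class medians. In units of -log10 p, a difference counted as the same if its sign held. For the shares of the gene lists other than ribosomal proteins, 13 were the same and 3 moved. With the 2051 peaks above the list's median log2 fold of 4.60, 108 5' UTR peaks on 74 genes remained. Medians then were 5.09 (5' UTR), 5.38 (exon) and 5.70 (3' UTR), shares at a log2 fold of 6 or more 17.6%, 22.8% and 44.1%, exon width 72 nt and the ribosomal protein share 16.3% (interval 7.32 to 29.7, against 8.38% of all gene identifiers). Translation factors, chromatin modifiers and actin genes had no member left there. The 5' UTR was higher than the exon in 55.6% of genes there. The difference of class medians between 5' UTR and exon, 0.0043, turned to -0.29 in those peaks, -0.17 with 1 peak per gene and class, -0.0455 with touching peaks joined and -0.34 in units of -log10 p. The within-gene difference from the exon turned to 0.0865 in the stronger peaks, 0.43 in -log10 p and 0.0856 without ribosomal protein genes, and that from the 3' UTR to 0.0641 with the median peak of each class. The sign of these differences is therefore not settled, and the cause was not tested. With 1 peak per gene and class the exon median was 4.71 and widths 82 nt, 77 nt and 97 nt (5' UTR, exon, 3' UTR). At marks of 5 and 7 the shares were 27.8% and 1.69% (5' UTR), 26.6% and 2.58% (exon) and 40.4% and 8.43% (3' UTR). Within 500 nt 52.7% of 5' UTR peaks had a neighbour. Without ribosomal protein genes exon width was 61 nt, and without Mecom the 3' UTR share was 7.10%. Leaving out ribosomal protein genes, Mecom or the 11 genes out of order was chosen after the data were seen. Depth per peak is unknown.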

Other observations

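Genes outside the lists were looked at after their values were seen. Both ferritin mRNAs, whose proteins store iron and whose 5' UTR is known to hold the iron-responsive element, were members. Whether any peak covers that element was not tested. Ftl1 had a 20 nt 5' UTR peak at a log2 fold of 5.14 (chromosome 7, 45109102 to 45109121) and 3' UTR peaks of 3.54 and 4.26. Fth1 had touching 5' UTR peaks of 4.43 and 3.59, exon peaks of 5.61 and 5.09 upstream of them, and 5.12 in the 3' UTR. It is 1 of the 11 genes out of order, for which the label 5' UTR need not hold for every transcript. The metal-binding gene Mt1 had 5.01 in the 5' UTR and up to 4.05 in the 3' UTR.

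Cdkn1a, the cell cycle inhibitor p21, had 5' UTR peaks of 5.42, 4.32, 5.33 and 4.61 and 3' UTR peaks of 3.12 to 5.83. Zmat3 had 4.63 in a 5' UTR peak that lay downstream of its 3 exon peaks. The growth factor gene Vegfa had nearly level peaks of 4.93 in the 5' UTR and 4.84 in the 3' UTR. Runx3, a relative of Runx1, had 4.46 in the 5' UTR and up to 5.89 in the 3' UTR.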
